A study of Mus musculus with 16 samples.

Results

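Keratins are the intermediate filament proteins of epithelial cells, and 10 of their genes were followed here by name in a table of 54532 mouse genes. The set held 5 basal keratins of stratified epithelia (Krt5, Krt14, Krt16, Krt17 and Krt6a) and 5 simple keratins of epithelia with a single cell layer (Krt7, Krt8, Krt18, Krt19 and Krt20). RNA was sequenced in 16 libraries of tumours grown from MC38 cells, a colon carcinoma line of C57BL/6 mice, after injection into the wall of the descending colon of C57BL/6 mice. Tumours came from 1 of 2 variants of the line, MSI and CIN, terms that stand for microsatellite and chromosomal instability. Each mouse also received bone marrow derived dendritic cells into the abdominal cavity on days 1, 6 and 12. These cells had been exposed for 30 minutes to 2 µg of DNA from MSI or CIN cells with Lipofectamine 2000, as free cytosolic DNA or as micronuclei, which are small membrane-bound bodies holding chromosome fragments. Tumours were taken on day 15. The 2 tumour types, 2 DNA sources and 2 DNA forms made 8 groups of 2 libraries. All groups therefore carried MC38 tumours and received DNA-loaded dendritic cells. Below, the tumour is named first and the DNA after it.

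Keratins form filaments from pairs of a type I and a type II chain. Krt8 (type II) with Krt18 (type I) is the founding pair of simple epithelia, Krt19 (type I) and Krt7 (type II) join it in many ducts and glands, and Krt20 (type I) marks differentiated cells of the intestinal surface. Krt5 (type II) and Krt14 (type I) form the pair of basal cells in skin and other stratified epithelia, whereas Krt6a (type II), Krt16 and Krt17 (both type I) are known for their induction in wounded or hyperproliferative epidermis. The lining of the colon is a simple epithelium.

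Totals per library ran from 11561955 to 17937501 counts, and the libraries of a group differed by far more than counting noise, with a common biological coefficient of variation of 0.43. The labelled tissue was colorectal cancer. All 20 genes of a colon epithelium list without keratins passed the filter on low counts, with a summed level between 198 and 16152 CPM (counts scaled by library total and TMM factor). The lowest of these was a library of CIN tumours with MSI micronuclei. Transcripts of skeletal muscle were found in every library and exceeded a mean log2 CPM of 2 over the listed genes in 5, 1 of MSI tumours and 4 of CIN tumours, and tumour comparisons are given below with and without them where that ended a call. The series design combined equal RNA from 3 biological replicates, but the labels leave unsaid whether every library is its own pool. All p-values here reflect how far these libraries scatter, and part of that scatter may be technical. In these bulk samples, fewer cells of a type and less RNA per cell cannot be told apart.

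The type I basal keratins are close in sequence, which bears on how far reads can separate them. Over their coding sequences Krt14 and Krt16 were 86.5% identical with a longest shared run of 134 bases, and Krt14 and Krt17 were 84.1% identical with a longest shared run of 71 bases. The lines below give the 120 coding bases in which Krt16 differed most from Krt14, with the aligned bases of Krt17. Only stretches aligned without a gap in Krt14, Krt16 and Krt17 were compared. Capitals mark bases that differ from Krt14, and all are on the minus strand (GRCm38), within chr11:100204459-100204661 for Krt14, chr11:100247137-100247342 for Krt16 and chr11:100257778-100258437 for Krt17.
Krt14: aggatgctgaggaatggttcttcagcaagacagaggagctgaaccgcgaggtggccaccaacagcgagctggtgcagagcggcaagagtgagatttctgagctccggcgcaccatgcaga
Krt16: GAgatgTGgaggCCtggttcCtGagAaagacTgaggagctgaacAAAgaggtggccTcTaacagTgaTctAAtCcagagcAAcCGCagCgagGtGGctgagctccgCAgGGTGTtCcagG
Krt17: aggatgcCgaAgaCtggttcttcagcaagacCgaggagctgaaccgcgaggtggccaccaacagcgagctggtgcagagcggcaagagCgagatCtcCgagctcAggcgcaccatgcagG
Krt16 had 38 mismatches to Krt14 there, and Krt17 had 9. The next lines give the 120 coding bases in which Krt14 and Krt16 differed least among these gap-free stretches. They lie at chr11:100206997-100207116, chr11:100248456-100248575 and chr11:100260618-100260737, with 4 mismatches in Krt16 and 12 in Krt17. Krt14 and Krt16 also share identical stretches of that length, within their run of 134 bases, which this choice left out.
Krt14: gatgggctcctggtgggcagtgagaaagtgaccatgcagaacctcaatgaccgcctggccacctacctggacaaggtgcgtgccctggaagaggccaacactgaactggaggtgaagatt
Krt16: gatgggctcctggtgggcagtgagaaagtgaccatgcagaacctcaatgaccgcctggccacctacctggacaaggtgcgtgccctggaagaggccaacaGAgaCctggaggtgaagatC
Krt17: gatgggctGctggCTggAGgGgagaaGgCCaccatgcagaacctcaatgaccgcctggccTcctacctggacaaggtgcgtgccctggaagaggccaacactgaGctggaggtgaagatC
Of all 50-base words in its coding transcripts, Krt14 shared 14.4% with transcripts of other genes, mostly Krt16 (11.4%). Krt16 shared 37.6%, of which the predicted gene Gm11597 held the most (25.2%), followed by Krt14 and Krt17, so the split of reads between Krt14 and Krt16 is uncertain for part of each transcript. Krt17 shared 3.99%.

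The start regions of the members were looked up in RefSeq (GRCm38.p6), which held 6 of the 10: Krt5, Krt14, Krt7, Krt8, Krt18 and Krt20. Krt16, Krt17, Krt19 and Krt6a are named only. Windows before the start are shown for 1 basal and 2 simple keratins, as far as they lie outside the gene, to set them side by side. They are chr15:101712906-101713155 on the minus strand for Krt5, chr15:102027966-102028179 on the plus strand for Krt18 and chr11:99438154-99438403 on the minus strand for Krt20, where capitals mark a TATAAA match.
Krt5: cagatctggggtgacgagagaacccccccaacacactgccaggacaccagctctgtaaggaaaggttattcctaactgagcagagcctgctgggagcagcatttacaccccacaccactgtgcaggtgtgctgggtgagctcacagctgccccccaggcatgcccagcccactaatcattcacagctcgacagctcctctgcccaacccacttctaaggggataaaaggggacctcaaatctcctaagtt
Krt18: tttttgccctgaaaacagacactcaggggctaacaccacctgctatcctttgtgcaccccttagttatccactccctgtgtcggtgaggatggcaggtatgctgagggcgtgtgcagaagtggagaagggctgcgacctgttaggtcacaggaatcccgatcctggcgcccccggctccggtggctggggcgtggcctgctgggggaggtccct
Krt20: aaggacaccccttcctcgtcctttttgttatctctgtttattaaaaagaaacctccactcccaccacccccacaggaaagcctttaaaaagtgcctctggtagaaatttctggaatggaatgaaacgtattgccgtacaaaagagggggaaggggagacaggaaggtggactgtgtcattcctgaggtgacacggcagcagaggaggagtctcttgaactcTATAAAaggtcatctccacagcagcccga
The search covered 250 bases before the RefSeq start on both strands. For Krt14 and Krt7 all of these bases lie inside the gene as the count table gives it, so their windows are not upstream of that gene. TATAAA was found in 1 of the 6 windows, that of Krt20, with its first base 29 before the start, and in 12.4% of 32851 RefSeq windows of that length. GGGCGG was found in 1 of the 6, that of Krt7, against 32.7% of all windows. TGANTCA (6.75% of all windows) and CCAAT (33.8%) had no match in these 6 windows, and no match overlapped another motif.

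Krt14, the type I keratin of basal cells, was the most abundant basal keratin in every library and was lower in every MSI tumour library than in any CIN tumour library. In MSI tumours the 2 libraries read 2.81 and 2.75 CPM with MSI free DNA. They read 16.4 and 10.6 CPM with MSI micronuclei. They read 24.1 and 6.93 CPM with CIN free DNA, and 15.4 and 22.8 CPM with CIN micronuclei. The pair with MSI free DNA was the lowest of these 4 groups, and the libraries of the other 3 groups overlapped. In CIN tumours Krt14 read 59.3 and 64.3 CPM with MSI free DNA. It read 110 and 81.7 CPM with MSI micronuclei, and 93.3 and 67.6 CPM with CIN free DNA. It read 53.1 and 42.5 CPM with CIN micronuclei, the lowest pair of the CIN tumours. The mean was 12.7 ± 8.35 CPM in MSI tumours (SD, n = 8) and 71.4 ± 22.2 CPM in CIN tumours (SD, n = 8), 5.61-fold higher in CIN tumours. The log2 fold change of MSI against CIN tumours was −2.75 ± 0.25 (SE; edgeR quasi-likelihood test, adjusted p = 4.10e-04).

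Krt16, the stress-inducible type I keratin, differed in the same direction at a lower level. In MSI tumours it read 0.433 and 0.201 CPM with MSI free DNA and 0.905 and 0.453 CPM with MSI micronuclei. It read 0.971 and 0.733 CPM with CIN free DNA and 0.933 and 1.72 CPM with CIN micronuclei. In CIN tumours it read 9.997 and 8.17 CPM with MSI free DNA and 9.56 and 8.93 CPM with MSI micronuclei. It read 10.8 and 9.30 CPM with CIN free DNA and 4.89 and 5.16 CPM with CIN micronuclei. Each MSI tumour library thus lay below every CIN tumour library. As for Krt14, CIN micronuclei gave the lowest pair in CIN tumours, and that pair did not overlap the other 6 libraries. The share of all genes with such a low pair was not counted, nor for the Krt14 pair with MSI free DNA. No trait particular to these genes is read from the pairs, and no DNA comparison called either gene. The Krt16 mean was 0.794 ± 0.467 CPM in MSI tumours and 8.36 ± 2.19 CPM in CIN tumours (SD, n = 8 each), 10.5-fold higher in CIN tumours. The log2 fold change was −3.51 ± 0.24 (SE; edgeR, adjusted p = 8.38e-05). Per 100 Krt14 counts there were 4.02 to 15.4 Krt16 counts in MSI tumours and 8.70 to 16.9 in CIN tumours, so the proportion of Krt16 to Krt14 overlapped between the tumour types.

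**Figure D1:**
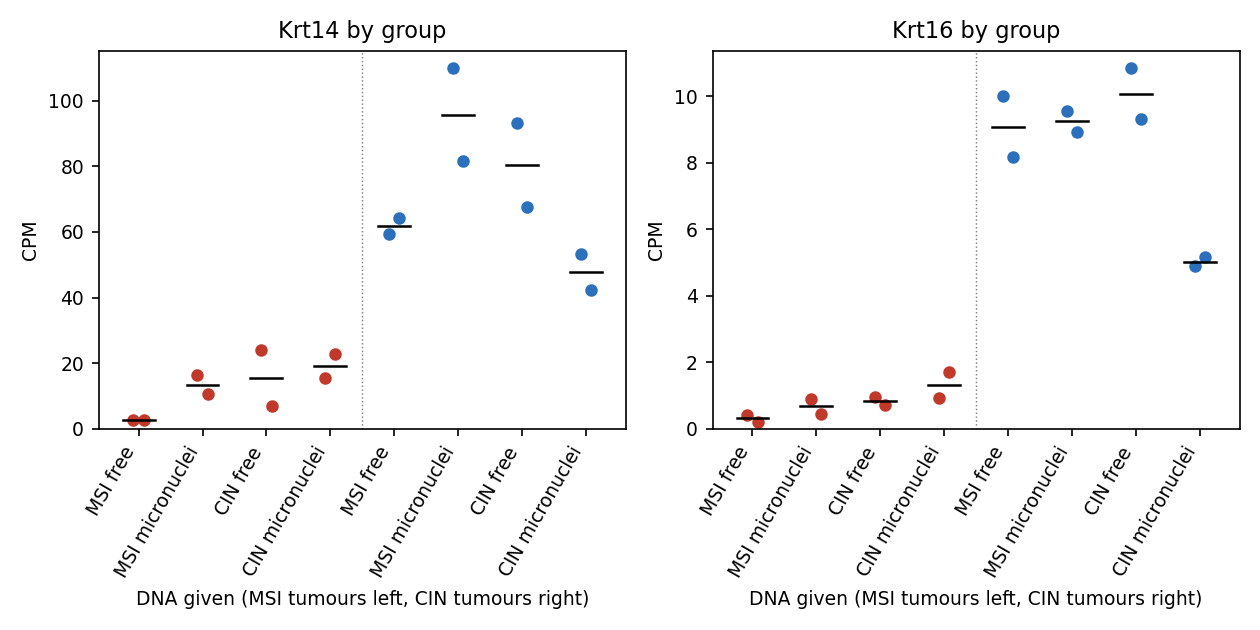
Krt14 and Krt16 in CPM (linear axes from 0) in each of the 16 libraries, by tumour type and by the DNA given to the dendritic cells; each point is 1 library and each bar the mean of a group of 2. The MSI tumour libraries (2.75 to 24.1 CPM for Krt14, 0.201 to 1.72 CPM for Krt16) lie below all CIN tumour libraries (42.5 to 110 CPM and 4.89 to 10.8 CPM).

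Krt14 and Krt16 were the 2 members called of 9 tested in the MSI against CIN tumour comparison, where 5.8% of the 18777 genes tested were called, 3.48% lower and 2.32% higher in MSI tumours. They were also the 2 members whose MSI and CIN tumour libraries did not overlap, against 3.11% of all genes tested (1.88% lower and 1.23% higher in MSI tumours). Both calls were made with each library left out in turn. When the 5 skeletal muscle-rich libraries were left out of an additive model, a choice made after seeing the data, Krt16 was called (adjusted p = 0.0195) and Krt14 was not (log2 fold change −2.32, edgeR adjusted p = 0.12). Without overlap, each replicate number must show the same order, so the split by number adds no support. Krt14 ran from 2.81 to 24.1 CPM in MSI and from 53.1 to 110 CPM in CIN tumours among the libraries numbered 1. It ran from 2.75 to 22.8 CPM and from 42.5 to 81.7 CPM among those numbered 2.

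The other basal keratins were near the limit of counting and were not called. Krt17, also type I, had a mean of 0.863 ± 0.536 CPM in MSI and 1.07 ± 0.893 CPM in CIN tumours (SD, n = 8 each). Its libraries overlapped fully, from 0.187 to 1.60 CPM (median 0.865) in MSI and from 0 to 2.13 CPM (median 1.09) in CIN tumours, with a log2 fold change of −0.14 ± 0.75 (SE; edgeR, adjusted p = 0.925). The library at 0 was the first of CIN tumours with MSI micronuclei. Krt5, the usual type II partner of Krt14, had 64 counts in all 16 libraries against 9793 for Krt14. Of these, 39 came from the second library of CIN tumours with MSI micronuclei and 12 from the second of MSI tumours with MSI free DNA, and 7 libraries had 0. Its log2 fold change was −1.19 ± 1.25 (SE; edgeR, adjusted p = 0.572), and it was positive at 0.68 without the library that held 39 counts. Krt6a, the type II partner of Krt16, did not pass the filter on low counts. It had 21 counts, all in that same library, and 0 in the other 15, where 3 counts would be 0.164 to 0.265 CPM. Krt6a shared 49.5% of its 50-base words with other genes, mostly Krt6b, which had 9 counts in all. Exons of Krt5 and Krt6a overlap genes on the opposite strand by 129 and 600 bases, and no source used here says whether the counting used strand, so part of their few counts could belong to those genes.

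Krt14 and Krt16 are best known from squamous epithelium, so its markers were read in the same libraries. Of 10 such genes (Trp63, Dsg3, Dsc3, Pkp1, Sfn, Col17a1, Ivl, Lor, Krtdap and Sbsn) the summed level was 29.1 to 144 CPM in MSI tumours and 38.0 to 107 CPM in CIN tumours, and the tumour types overlapped. Most of it was Sfn, a cell cycle regulator also made by other epithelia. Trp63, the transcription factor of basal cells, had 31 counts in all and 0 in 8 libraries. Col17a1, a collagen of hemidesmosomes, was found in every library, at 0.871 ± 0.491 CPM in MSI and 2.26 ± 0.515 CPM in CIN tumours (SD, n = 8 each; log2 fold change −1.45 ± 0.39, edgeR adjusted p = 0.0556). Sbsn, a protein of differentiating epidermis, averaged 3.22 ± 0.871 and 4.68 ± 1.03 CPM (log2 fold change −0.54 ± 0.22, edgeR adjusted p = 0.188). Pkp1, a desmosomal plaque protein, had 4034 counts and 0 in no library, and Lor, a cornified envelope protein, had 179. The estimates of Lor (1.17 ± 0.69), Pkp1 (0.67 ± 0.61) and Sfn (0.35 ± 0.38) were positive (log2 fold change ± SE). That of Dsc3 was −0.56 ± 0.48. None of these was called (edgeR adjusted p from 0.337 to 0.586). Dsg3, a cadherin of stratified desmosomes, had 16 counts and 0 in 10 libraries. Ivl, a cornified envelope precursor, had 2 counts and Krtdap 1, each with 0 in 15 libraries. The library with the most Krt5 and Krt6a had 18 counts of Sprr2h, a small proline-rich cornified envelope protein. It had 4 counts of Dsg3, and 0 of Trp63, Ivl and Krtdap. Of all 16 libraries it was highest for Krt4 (1.59 CPM), Krt1 (0.638 CPM), Krt6b (0.478 CPM), Sprr2h and Col17a1 (3.11 CPM). Pkp1, Sfn, Lor, Sbsn, Dsc3 and Dsg3 were highest in other libraries. The part of these genes in the Krt14 and Krt16 difference was not tested.

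The 5 simple keratins were abundant and spread widely within each tumour type. Krt8, their main type II chain, ran from 141 to 3326 CPM in MSI tumours (median 1359) and from 35.7 to 1472 CPM in CIN tumours (median 713). Krt19, the short type I chain, ran from 86.5 to 1998 CPM (median 824) and from 17.7 to 857 CPM (median 442). Krt20 ran from 20.9 to 472 CPM (median 188) and from 5.40 to 241 CPM (median 115). In all 3 the CIN range lay mostly inside the MSI range, and the first library of CIN tumours with MSI micronuclei was lowest. Krt18, the type I partner of Krt8, ran from 6.97 to 212 CPM (median 97.5) and from 1.95 to 143 CPM (median 53.1). Krt7, a type II chain of ducts, ran from 3.17 to 70.2 CPM (median 36.1) and from 0.0885 to 60.2 CPM (median 25.8). Krt7 was thus the lowest of the simple keratins by median CPM and varied the most within CIN tumours.

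**Figure D2:**
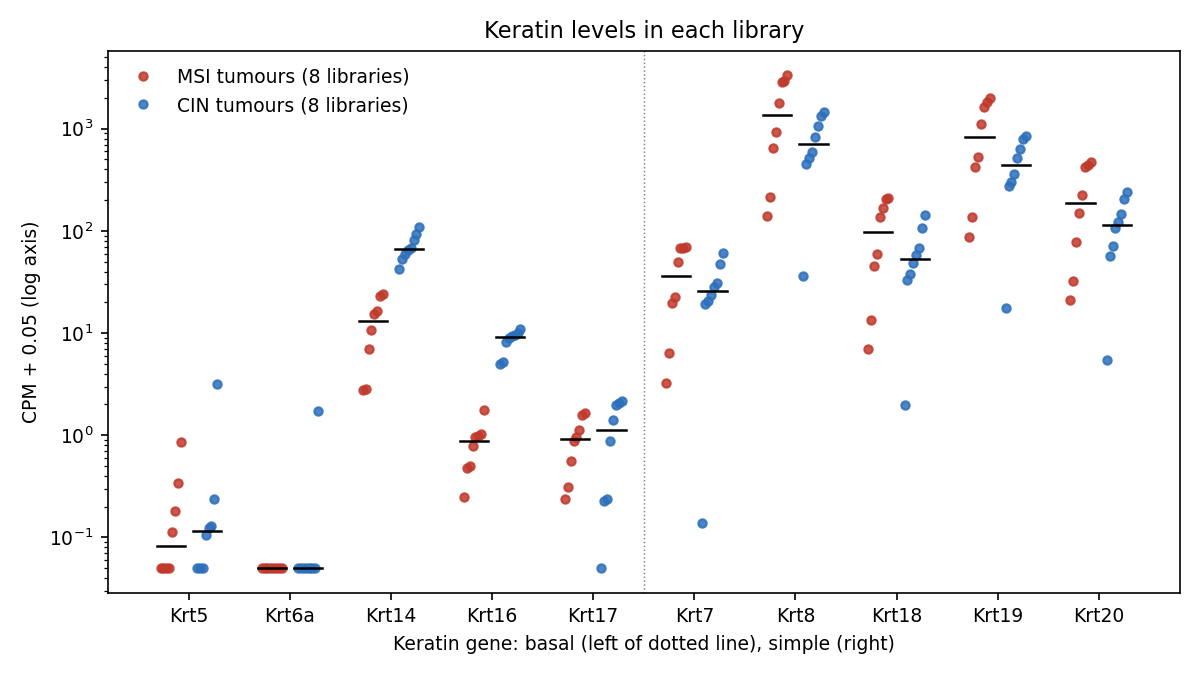
CPM of the 10 keratins, with 0.05 added for the log axis, in each of the 16 libraries, with the MSI and CIN tumours in 2 colours; each point is 1 library and each bar the median of 8. Of these 10, only Krt14 and Krt16 separate the tumour types, while Krt8 ranges from 35.7 to 3326 CPM with the types mixed.

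None of the 5 simple keratins was called between tumour types. Their log2 fold changes of MSI against CIN tumours were 1.15 ± 0.80 for Krt8, 1.15 ± 0.81 for Krt19, 1.07 ± 0.81 for Krt20, 0.92 ± 0.83 for Krt18 and 0.56 ± 0.84 for Krt7 (SE). The edgeR adjusted p-values ran from 0.410 to 0.697. All 5 estimates were positive, with a median of 1.07 against 0.06 over all genes tested, but each SE was 0.80 or more. The means were 1605 ± 1295 CPM for Krt8 in MSI and 786 ± 482 CPM in CIN tumours (SD, n = 8 each), so the difference was smaller than the SD within MSI tumours.

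The simple keratins of MSI tumours differed by replicate number. Krt8 read 141 to 935 CPM in the 4 MSI tumour libraries numbered 1 and 1784 to 3326 CPM in the 4 numbered 2, with no overlap. In CIN tumours the numbers overlapped, at 35.7 to 1322 CPM and 454 to 1472 CPM. The tumour comparison of Krt8 therefore turned with the number: its median was 435 CPM in MSI and 831 CPM in CIN tumours among the libraries numbered 1, and 2891 and 672 CPM among those numbered 2. The other 4 simple keratins also had no overlap between the numbers in MSI tumours, as with Krt18 at 6.97 to 59.2 CPM and 135.8 to 212 CPM. The colon epithelium list moved with them, at a summed 746 to 4901 CPM in the MSI tumour libraries numbered 1 and 9968 to 16152 CPM in those numbered 2, and so did smooth muscle genes, at 457 to 1293 CPM and 2103 to 5316 CPM. The share of all genes without overlap between the numbers was not counted, so no trait particular to keratins is read from this. The labels do not say that a number marks a batch, and the cause was not tested.

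Across libraries each simple keratin followed the colon epithelium score, the mean log2 CPM of the 20 listed colon genes. These were 27 relations (9 members, over 16 libraries and within each tumour type), with two-sided permutation tests. For Krt8, r was 0.994 (p = 1e-05, the smallest the permutations can give; adjusted p = 5.4e-05) and rho was 0.994 (p = 1e-05, adjusted p = 5.4e-05) over 16 libraries. Without the 2 libraries farthest from the median score r was 0.992. Within MSI tumours r was 0.995 (exact p = 4.96e-05, adjusted p = 0.000122) and within CIN tumours 0.998 (exact p = 4.96e-05, adjusted p = 0.000122), with rho 0.976 in both (exact p = 0.000397, adjusted p = 0.000824). For Krt18, Krt19, Krt20 and Krt7, r over 16 libraries was 0.997, 0.995, 0.990 and 0.976. Those 4 keratins had the same permutation p and adjusted p as Krt8 for r and for rho, with rho from 0.938 to 0.994, and r was 0.969 to 0.994 without the 2 farthest libraries. Within the tumour types their r ran from 0.987 to 0.998.

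Krt17 also followed the score, less closely, and Krt14 and Krt16 did not. For Krt17, r was 0.822 (permutation p = 0.00011, adjusted p = 0.000212) and rho was 0.659 (permutation p = 0.00641, adjusted p = 0.0102) over 16 libraries, and r was 0.660 without the 2 farthest. Within MSI tumours r was 0.968 (exact p = 0.000124, adjusted p = 0.000223) with rho 0.929 (exact p = 0.00223, adjusted p = 0.00402) and r of 0.884 without the 2 farthest. Within CIN tumours r was 0.794 (exact p = 0.00761, adjusted p = 0.0114), rho was 0.643 (exact p = 0.0962, adjusted p = 0.13) and r was 0.595 without the 2 farthest, so the relation there rests on them. For Krt14 the tumour types form separate clusters, so r is given within each. Within MSI tumours r was −0.36 (exact p = 0.379, adjusted p = 0.445) and rho −0.19 (exact p = 0.665, adjusted p = 0.748). Within CIN tumours r was −0.75 (exact p = 0.0168, adjusted p = 0.0239) and rho −0.76 (exact p = 0.0368, adjusted p = 0.0551), and r was −0.39 without the 2 farthest libraries, so the relation rests on them. For Krt16, r was −0.25 (exact p = 0.55, adjusted p = 0.571) within MSI and −0.38 (exact p = 0.366, adjusted p = 0.445) within CIN tumours, with rho −0.07 (exact p = 0.882, adjusted p = 0.916) and −0.29 (exact p = 0.501, adjusted p = 0.615).

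**Figure D3:**
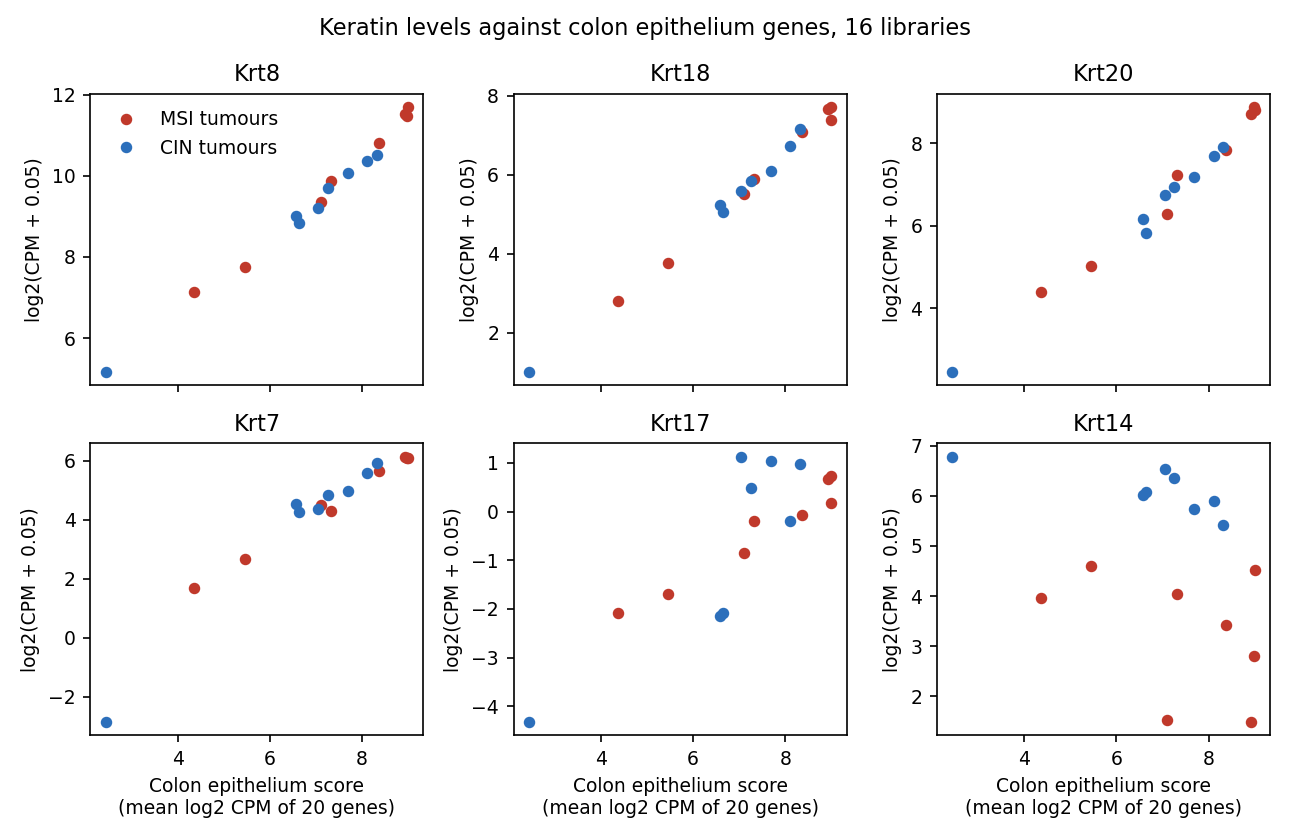
Log2 of CPM plus 0.05 for Krt8, Krt18, Krt20, Krt7, Krt17 and Krt14 against the colon epithelium score (mean log2 CPM of 20 colon genes); each point is 1 of 16 libraries, with the tumour types in 2 colours. Krt8 follows the score over both types, whereas Krt14 splits by tumour type.

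With the colon epithelium score as a covariate the simple keratins drew near 0 between tumour types and the 2 called keratins did not. Krt8 was at 0.18 ± 0.084, Krt19 at 0.22 ± 0.076, Krt20 at 0.12 ± 0.12, Krt18 at −0.07 ± 0.085 and Krt7 at −0.31 ± 0.17 (log2 fold change ± SE), with Krt18 and Krt7 now negative. Their edgeR adjusted p-values ran from 0.0716 for Krt19 to 0.653 for Krt18. Krt14 stood at −2.69 ± 0.21 (edgeR adjusted p = 7.63e-06) and Krt16 at −3.53 ± 0.23 (edgeR adjusted p = 1.11e-06). The score uses genes measured in the same libraries, so this gives the difference at an equal level of those genes.

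**Figure D4:**
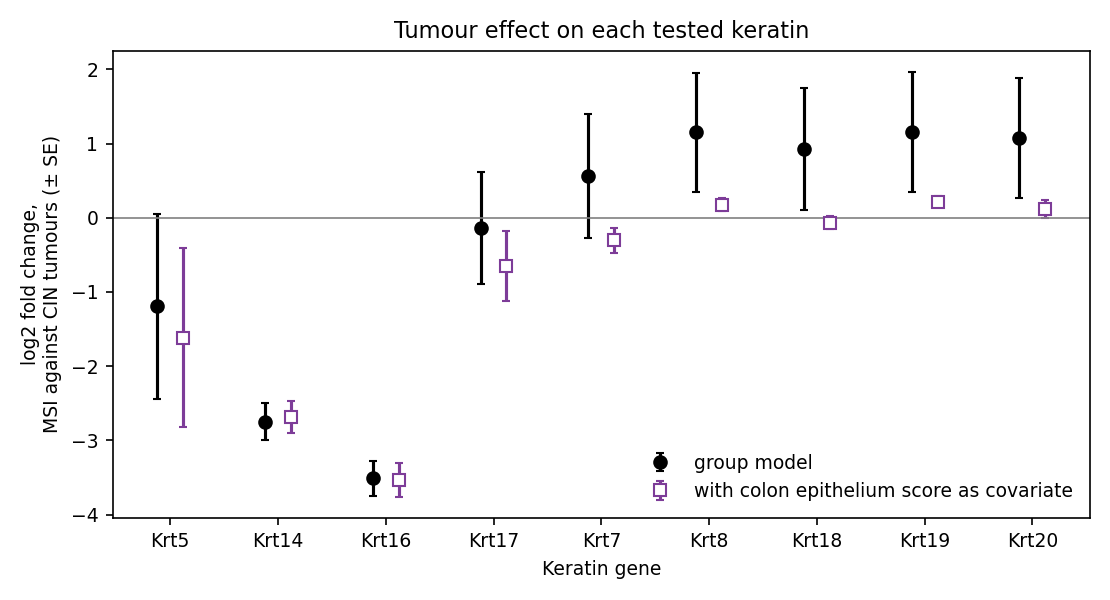
Log2 fold change of MSI against CIN tumours for the 9 tested keratins, with SE bars, from the group model (circles) and with the colon epithelium score as a covariate (squares). Krt14 and Krt16 lie at −2.75 and −3.51 in the group model, and the simple keratins, at 0.56 to 1.15 there, move to between −0.31 and 0.22 with the covariate.

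The balance of basal to simple keratins was compared on FPKM, counts scaled by gene length and library total, since genes of different length are set side by side. Summed over the members, the log2 ratio of basal to simple FPKM had a median of −7.85 in MSI tumours (−9.87 to −3.83) and −3.72 in CIN tumours (−5.66 to 1.10), and the types overlapped. Simple keratins thus exceeded basal keratins in 15 of 16 libraries. The exception was the first library of CIN tumours with MSI micronuclei, where basal keratins made up 68.2% of the members' FPKM and simple keratins and colon genes were at their lowest. The 2 MSI tumour libraries inside the CIN range, the first with CIN free DNA and the first with CIN micronuclei, also had the fewest simple keratin transcripts of their type. Krt14 made up 51.2% to 94.2% of the basal FPKM in MSI tumours and 82.9% to 91.1% in CIN tumours. By the difference of the member medians in place of the sums, the medians were −7.76 in MSI and −7.14 in CIN tumours, so the gap between tumour types depended on summing, in which Krt14 carries most of the basal total.

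**Figure D5:**
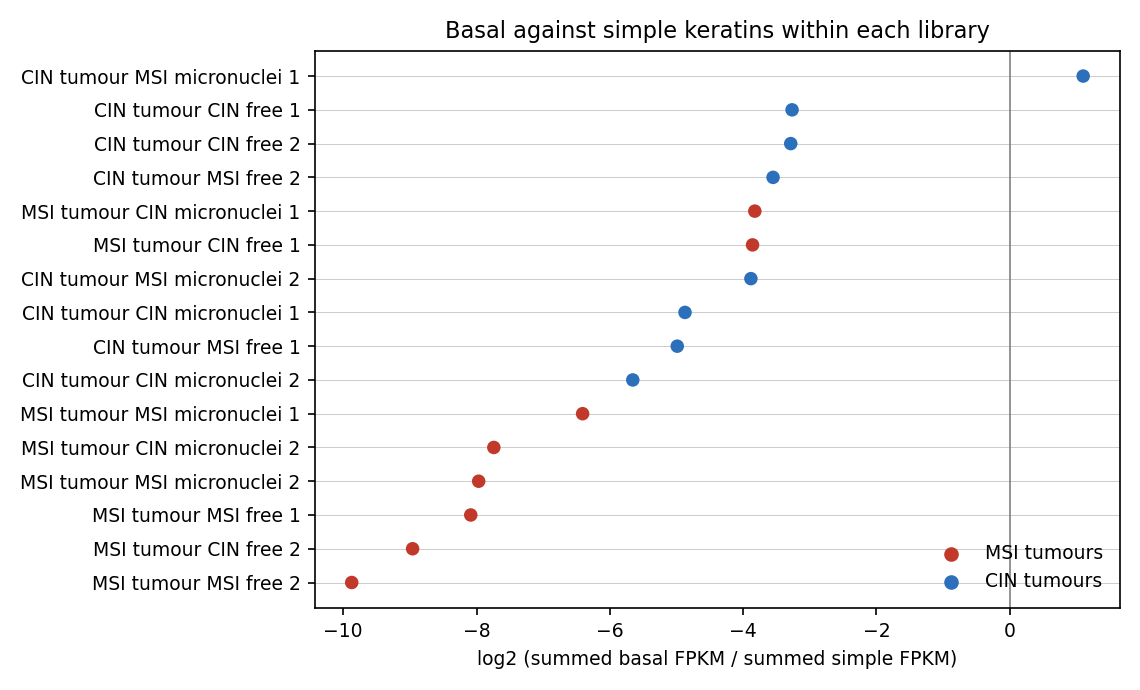
Log2 ratio of summed basal to summed simple keratin FPKM in each of the 16 libraries, sorted by the ratio and coloured by tumour type; each point is 1 library and 0 marks equal sums. The single library above 0, at 1.10, is the first of CIN tumours with MSI micronuclei.

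Among the simple keratins the proportions varied less than the levels. Krt8 made up 51.3% to 57.1% of the summed simple FPKM in all 16 libraries, while its CPM ranged from 35.7 to 3326. Krt8 exceeded its partner Krt18 by 7.53 to 14.8 times in FPKM, and exceeded Krt19 by 1.48 to 1.91 times. For each 100 FPKM of Krt8 there were 12.0 to 18.5 FPKM of Krt20. Krt8 shared 26.9% of its 50-base words with the pseudogene Krt8-ps, and the gene model of Krt7, 7049 bases, was longer than those of the other members (1437 to 2418), which bears on its FPKM. Ranked by FPKM among all genes, Krt8 stood 12th to 643rd in MSI tumours and 27th to 3279th in CIN tumours. Krt14 stood 4477th to 12912th and 756th to 2384th.

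The DNA given to the dendritic cells was compared next, as source (MSI against CIN DNA), as form (free DNA against micronuclei), within each tumour type, and as the difference of each effect between tumour types. In these 8 comparisons edgeR called 0 of 18777 genes (0%), so none of the 9 tested members was called. At an unadjusted p under 0.05, edgeR gave 148 genes for form and 209 for source over all tumours, and 126 to 315 in the other 6 comparisons. DESeq2 called Epha3 alone for source in CIN tumours and Epha3 and Scgb2b15 for the tumour by source interaction, none of them keratins and named after their values were seen, and 0 in the other 6, with 170 to 249 genes at an unadjusted p under 0.05 in those 6.

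The members below an unadjusted p of 0.05 in edgeR were Krt14 and Krt16 alone. In MSI tumours, MSI against CIN DNA gave log2 fold changes of −1.49 ± 0.34 for Krt14 (unadjusted p = 0.00114) and −1.19 ± 0.34 for Krt16 (unadjusted p = 0.00490). Free DNA against micronuclei gave −1.29 ± 0.34 for Krt14 (unadjusted p = 0.00304) and −0.85 ± 0.34 for Krt16 (unadjusted p = 0.0286). All 4 had an edgeR adjusted p of 1.00. These values follow the low pair with MSI free DNA, whose Krt14 mean was 2.78 CPM (n = 2) against 16.05 ± 6.69 CPM (SD) in the other 6 MSI tumour libraries. In CIN tumours the source effect was 0.31 ± 0.32 for Krt14 and 0.36 ± 0.29 for Krt16, and the form effect was 0.06 ± 0.32 and 0.49 ± 0.29.

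The effects in MSI tumours minus those in CIN tumours were −1.80 ± 0.47 for Krt14 (unadjusted p = 0.00278) and −1.56 ± 0.45 for Krt16 (unadjusted p = 0.00524) by source. By form they were −1.35 ± 0.46 (unadjusted p = 0.0150) and −1.34 ± 0.45 (unadjusted p = 0.0123). None passed after adjustment, where the edgeR adjusted p was 1.00 for each. Over both tumour types Krt14 had an effect of −0.59 ± 0.23 by source (unadjusted p = 0.0280) and −0.61 ± 0.23 by form (unadjusted p = 0.0235), also with an edgeR adjusted p of 1.00. The simple keratins stood between −0.51 and 0.65 in the 8 comparisons, with SE from 0.79 to 1.67 and a lowest unadjusted p of 0.674.

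The genes whose pattern over the 16 libraries was most like each member were ranked by Pearson's r of log2 CPM among 12723 protein-coding genes, as a description with no test. These libraries share tumour type and tissue make-up, so r includes the difference between tumour types. For Krt14 they were Epha8, an ephrin receptor (0.951), Krt16 (0.947) and Zfp13, a zinc finger gene (0.939). For Krt16 they included Vill, a villin-like gene (0.959), and Hr, a transcriptional corepressor of hair follicles (0.959). For Krt8 they were Krt19 (0.999), Lgals4, a galectin of the gut epithelium (0.999), and Tmem45b (0.998). For Krt18 they were Hnf4a (0.997), Tjp3 (0.996) and Cdx1 (0.996), which are transcription factors of the intestine and a tight junction protein. Krt19 was nearest to Krt8, Ckmt1 and Cds1 (0.998 to 0.999), Krt20 to Slc34a2, Ttc22 and Tmem45b (0.996 each), and Krt7 to Fam174b, Cdcp1 and Hgfac (0.995 to 0.996). Krt17 was nearest to Hand2, a transcription factor, Srpx and Fxyd6 (0.901 to 0.918). Krt5, with few counts, had no gene above 0.634. Between members, Krt8 and Krt18 had r = 0.994, Krt14 and Krt5 −0.08.

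The other 43 keratin genes in the table were mostly silent. Of these, 13 had no count, 29 had fewer than 10 counts in all, and 12 were tested. The 5 with a mean of at least 1 CPM were Krt80, Krt10, Krt13, Krt23 and Krt87. Krt13, the type I keratin of mucosal stratified epithelia such as the esophagus, was the 1 called of these 12. Its direction was that of Krt14 and Krt16. Of all genes tested, 5.8% were called, 3.48% lower in MSI tumours. Krt13 averaged 0.843 ± 0.376 CPM in MSI and 3.53 ± 1.63 CPM in CIN tumours (SD, n = 8 each), without overlap. Of all genes tested, 1.88% were lower in MSI tumours without overlap. The log2 fold change of Krt13 was −1.99 ± 0.35 (edgeR adjusted p = 0.00975). Without the 5 skeletal muscle-rich libraries it was −1.78 and not called (edgeR adjusted p = 0.142). Krt80, a type II epithelial keratin, averaged 48.8 ± 22.2 and 28.4 ± 5.94 CPM and was not called (log2 fold change 0.79 ± 0.29, edgeR adjusted p = 0.145). It was called with the colon score as a covariate, at 0.87 (edgeR adjusted p = 0.00747), with a replicate block within each tumour type, at 0.71 (edgeR adjusted p = 0.0274), and without the second MSI tumour library with CIN micronuclei, at 0.98 (edgeR adjusted p = 0.0322). Krt10, the keratin of upper epidermal layers, averaged 4.27 and 4.40 CPM.

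The lists of junction and epithelial genes that work with keratins were read in the same tumour comparison. In desmosomes, which anchor keratin filaments between cells, 0 of 11 tested genes of 14 listed were called, against 5.8% of all genes tested. Of the 11, 10 had positive estimates, as with Jup at 0.95 and Dsp at 0.74, and the list's median log2 fold change was 0.74 against 0.06 over all genes tested. As with the simple keratins, the desmosome sum differed by replicate number in MSI tumours, at 122 to 547 CPM in the libraries numbered 1 and 978 to 1635 CPM in those numbered 2. In hemidesmosomes and the basement membrane, which anchor them to the matrix, 2 of 9 genes were called, both lower in MSI tumours (3.48% of all genes tested were), with a list median of 0.05. Plec, a linker of filaments, was at −0.76 ± 0.14 (edgeR adjusted p = 0.0128) and Dst, another such linker, at −0.83 ± 0.19 (edgeR adjusted p = 0.0333). Neither was called without the 5 skeletal muscle-rich libraries (edgeR adjusted p = 0.340 for Plec and 0.315 for Dst). Plec missed the threshold without the second MSI tumour library with MSI micronuclei (edgeR adjusted p = 0.0517), and Dst was called in 5 of 16 fits with 1 library left out. Regulators of stratified epithelia had 0 of 6 tested genes called (8 listed, median 0.51), and cornified envelope genes 0 of 7 (15 listed, median 1.08), against the same 5.8% and 0.06 over all genes tested.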

How the data were processed

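Counts and FPKM values per gene were deposited by the authors for 16 libraries, placed in 8 groups by their titles. The submitters' processing notes name GRCm39, fastp, featureCounts 1.5.0-p3 and HISAT2 2.0.5. The gene coordinates in the files were those of GRCm38 (53499 of 54409 shared GENCODE M21 genes identical), so GRCm38 is used. The deposited FPKM values were used for levels between genes and for ratios alone. Of the columns, 4 per file matched no sample and were left unused. The labels' protocols describe both a stranded and a non-stranded kit. The strand setting was not given in the sources used here.

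From the deposited counts, edgeR 4.0.16 (R 4.3.3, limma 3.58.1) was run on the 18777 genes that filterByExpr kept, using TMM scaling, a mean for each group, robust quasi-likelihood fits and a threshold of 0.05 after Benjamini-Hochberg adjustment over all genes. The comparisons were tumour, DNA source, DNA form, source and form within each tumour type, and 2 interactions. DESeq2 1.42.0 was an alternative, as were other size factors, no filter, replicate blocks, an additive model, the colon score as a covariate and each library left out. Log2 CPM for correlations used a prior count of 2. In a simulation of the tumour comparison on 18272 genes, 55 of 100 genes changed 2-fold and 86 of 100 changed 4-fold were recovered, with 7 false calls. The labels do not say what a replicate number marks. Deviations of same-numbered libraries from their group means correlated above 0.1 in 6 of 6 pairs of groups in MSI tumours (0.396 to 0.796). They did so in 2 of 6 pairs in CIN tumours and in 8 of 16 pairs across tumour types (−0.539 to 0.654). The numbers thus go together in every pair within MSI tumours alone, and blocks changed no member's call.

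Genes named are the 10 members, other keratins with a mean of at least 1 CPM, the 3 genes most like each member, and up to 4 called genes of each list; 1 gene so chosen is not reported here. The members and lists were chosen with earlier results of these data known. Floors (3 counts) cover counting error only. The ± values are SD between libraries or SE of the fits, as marked, and include the scatter between libraries.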

Additional observations from a re-analysis of the deposited data

Results flagged for a closer look

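Outlying libraries were sought within the 8 libraries of each tumour type, over 19 sets of keratin values. Chance flags about 1 in 20 such sets where values are normally spread. That rate does not hold for Krt5 and Krt6a, which had few counts and several libraries at 0. In MSI tumours Krt5 was highest, at 0.805 CPM (12 counts), in the second library with MSI free DNA, against 0.289 CPM in the next, a gap of 0.641 of the range. In CIN tumours Krt5 was highest, at 3.11 CPM (39 counts), in the second library with MSI micronuclei, against 0.186 CPM in the next, a gap of 0.940 of the range. Krt6a stood at 1.67 CPM (21 counts) in that same library and at 0 in the other 7 of CIN tumours. That library also had the highest Krt13 of all 16, at 6.86 CPM, while its Krt14 (81.7 CPM) and Krt16 (8.93 CPM) lay inside the range of the other CIN tumour libraries.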

How the results depend on the processing

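For Krt14 and Krt16 the tumour call was made in 24 of 25 and 25 of 25 alternatives, with log2 fold changes of −3.04 to −2.32 and −3.67 to −3.26. The simple keratins were called in 0. The number of genes called in the tumour comparison was 1089 in the group model, 1778 with a replicate block, 3428 with a replicate block within each tumour type, 1950 with an additive model, 2701 with the colon score, 2295 with DESeq2, and 477 to 1758 with 1 library left out. It was 135 in the additive model without the 5 skeletal muscle-rich libraries, an alternative chosen after seeing the data, in which fewer samples were fitted. The 2 blocks changed no member's call in any comparison. DESeq2 called 1 gene for source in CIN tumours and 2 for the tumour by source interaction, where edgeR called 0. Of 224 member values 210 kept their sign and their side of the threshold, 1 (Krt14 without the 5 libraries) lost its call, and 13 changed sign, all of members not called. The cause was not tested. With the colon score Krt7 was at −0.31 and Krt18 at −0.066. Without the second MSI tumour library with CIN micronuclei they were at −0.32 and −0.069, and without the second with CIN free DNA Krt7 was at −0.08. Without the second CIN tumour library with MSI micronuclei Krt5 was at 0.68 and Krt17 at 1.45, and Krt5 was at 0.95 without the 5 libraries. Krt17 was at 0.05, 0.0048, 0.06, 0.21 and 0.51 without the first library of, in turn, MSI tumours with CIN micronuclei, MSI free DNA and CIN free DNA and CIN tumours with MSI free and CIN free DNA. With 1 library left out, the log2 fold changes of those members ran from −1.97 to 0.68 for Krt5, −0.59 to 1.45 for Krt17, −0.32 to 2.36 for Krt7 and −0.069 to 1.91 for Krt18. By member medians the basal to simple ratio was −7.76 in MSI and −7.14 in CIN tumours, against −7.85 and −3.72 by sums. Few counts limit Krt5, Krt6a and Krt17, and the spread between libraries limits the rest.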

Other observations

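The intermediate filaments of other cell types were read in the tumour comparison. Of 9 genes, 2 were called, both lower in MSI tumours (3.48% of all genes tested were), and the median log2 fold change was 0.37 against 0.06 over all genes tested. Nes, the filament of progenitor cells, averaged 12.8 ± 5.19 CPM in MSI and 38.3 ± 8.69 CPM in CIN tumours (SD, n = 8 each; log2 fold change −1.56 ± 0.26, edgeR adjusted p = 0.00689), and was called in all 25 alternatives. Lmna, a nuclear lamin, was at −0.41 ± 0.10 (edgeR adjusted p = 0.0449), was called in 2 of 16 fits with 1 library left out, and was not called without the 5 skeletal muscle-rich libraries (edgeR adjusted p = 0.301). Vim, the filament of mesenchymal cells, averaged 2522 ± 729 and 2752 ± 416 CPM (edgeR adjusted p = 0.718).

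Msln, which mesothelium and some carcinomas make, was the 1 called of 7 tested genes of 8 listed for mesothelium. Of all genes tested, 5.8% were called, 2.32% higher in MSI tumours. Msln averaged 141 ± 68.7 CPM in MSI and 32.0 ± 5.75 CPM in CIN tumours (SD, n = 8 each; log2 fold change 2.13 ± 0.34, edgeR adjusted p = 0.00623), against the direction of Krt14. It was at 1.78 and not called without the 5 skeletal muscle-rich libraries (edgeR adjusted p = 0.155). Summed over the 8 genes, the list stood at 56.7 to 288 CPM in MSI and 44.6 to 67.9 CPM in CIN tumours, and its part in the keratin results was not tested. The other 6 tested genes of that list had negative estimates.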
